A study of Mus musculus with 21 samples.

Results

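In the ganglionic eminences of mouse embryos, 3049 regions held a peak of MBD3 and no peak of the lists named HDAC1 and HDAC2, among 38820 regions that held a peak of any of 6 NuRD subunits. These regions were 28.6% of the 10661 regions with an MBD3 peak, and 7.85% of all regions. They were chosen by the peak lists themselves: peaks that shared 1 bp or more on chromosomes 1 to 19 and X were merged, and merged regions with an MBD3 peak and neither deacetylase-named peak were kept. The other 7612 MBD3 regions (71.4%) held a deacetylase-named peak, 2606 of them of 1 list and 5006 of both.

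NuRD is a chromatin complex that joins a nucleosome remodelling ATPase, CHD4, to the histone deacetylases HDAC1 and HDAC2. MBD3 is a member of the methyl-CpG-binding domain family that has lost most of the preference for methylated DNA, and it holds the remodelling and deacetylase modules together. RBBP4 and RBBP7 are closely related histone-binding proteins that also serve in other complexes, among them Polycomb repressive complex and Sin3. In the ventral forebrain, the homeodomain factors DLX1 and DLX2 drive the differentiation of GABAergic neurons, and NuRD is known as a corepressor at developmental enhancers and promoters.

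The chromatin immunoprecipitation sequencing (ChIP-seq) came from CD1 embryos at E13.5, with 1 library for each of 6 subunits and 3 input libraries. ATAC-seq, a measure of open chromatin, came from E12.5 embryos, either wild-type (WT) or without Dlx1 and Dlx2 (Dlx1/2 KO). FTpos names the Ftag+ cells (ventricular zone) and FTneg the Ftag- cells (subventricular or mantle zone), and every group of genotype and cells had 3 embryos. Each of the 4 accessibility lists is named for a comparison of 1 genotype over the other, with the embryos together. KO-higher and WT-higher below follow the lists' names and the samples to which they are attached, and the direction was not checked otherwise. No ChIP target has a replicate, read depths are unknown, and regions of 1 list share its library, so the tests below compare sets of regions and not embryos. The peak lists carry no measure of RNA, and the tissue was not checked against marker genes.

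The names of the lists matter for what the regions are. The list named HDAC1 is attached to the sample labelled CHD4, the list named HDAC2 to the sample labelled HDAC1, and the list named CHD4 to the sample labelled HDAC2. The MBD3, Rbbp4 and Rbbp7 lists carry the name of their sample. The labels give the HDAC1 and HDAC2 samples input 1, the CHD4 and MBD3 samples input 2, and the RBBP4 and RBBP7 samples input 3, while in the names of the lists HDAC1 and HDAC2 share a run label, as do CHD4 and MBD3, and Rbbp4 and Rbbp7. The files do not settle which of the names applies. "HDAC1-named", "HDAC2-named" and "CHD4-named" below follow the lists. If the sample labels are right, the regions lack peaks of CHD4 and HDAC1, and the CHD4-named peaks are those of HDAC2. When the rule was applied by the sample labels, 3879 regions were kept.

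The promoters below show the DNA at start sites that lay in some of these regions. Of the promoters whose MBD3 summit lay inside the printed window, the 5 with the highest MBD3 fold enrichment are shown. The window runs from 250 bases before a gene's start to 50 after it. The promoters of Neurod2 and Neurog2 were added after their values were seen, and their MBD3 summits lay outside the window. Sequences are from RefSeq on GRCm38.p6, the assembly of mm10, and read 5′ to 3′ on the gene's strand, with each CpG in capitals. The windows are Klhl15 at chrX:94234680-94234979 (plus strand), Fibcd1 at chr2:31845956-31846255 (minus strand), Proser2 at chr2:6130136-6130435 (minus strand), Sphk1 at chr11:116531587-116531886 (plus strand), Syt16 at chr12:73997527-73997826 (plus strand), Neurod2 at chr11:98329596-98329895 (minus strand) and Neurog2 at chr3:127632886-127633185 (plus strand).
Klhl15: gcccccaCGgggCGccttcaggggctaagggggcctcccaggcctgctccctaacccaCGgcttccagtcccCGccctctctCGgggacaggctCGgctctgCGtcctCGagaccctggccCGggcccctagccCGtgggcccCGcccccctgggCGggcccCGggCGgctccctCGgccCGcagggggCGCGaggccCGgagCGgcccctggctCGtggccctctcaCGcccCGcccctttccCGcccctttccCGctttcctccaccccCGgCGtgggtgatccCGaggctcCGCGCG
Fibcd1: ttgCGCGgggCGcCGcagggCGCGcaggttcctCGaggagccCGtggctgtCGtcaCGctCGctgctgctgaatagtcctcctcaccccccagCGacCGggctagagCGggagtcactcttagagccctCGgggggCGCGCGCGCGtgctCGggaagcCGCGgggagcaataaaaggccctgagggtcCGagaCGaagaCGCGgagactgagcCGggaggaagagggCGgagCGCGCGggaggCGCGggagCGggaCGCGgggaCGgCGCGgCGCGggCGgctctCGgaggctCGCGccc
Proser2: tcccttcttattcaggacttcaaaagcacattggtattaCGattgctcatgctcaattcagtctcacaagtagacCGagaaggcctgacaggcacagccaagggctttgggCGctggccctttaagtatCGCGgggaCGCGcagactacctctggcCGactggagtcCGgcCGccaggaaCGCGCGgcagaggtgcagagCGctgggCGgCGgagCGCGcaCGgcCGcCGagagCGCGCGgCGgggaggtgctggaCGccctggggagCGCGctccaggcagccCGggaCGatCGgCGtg
Sphk1: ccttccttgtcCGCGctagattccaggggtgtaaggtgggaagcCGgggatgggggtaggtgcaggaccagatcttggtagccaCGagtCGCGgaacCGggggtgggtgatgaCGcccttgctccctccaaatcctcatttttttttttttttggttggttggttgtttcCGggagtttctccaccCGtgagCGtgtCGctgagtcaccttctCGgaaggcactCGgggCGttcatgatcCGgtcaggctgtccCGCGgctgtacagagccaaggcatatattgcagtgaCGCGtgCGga
Syt16: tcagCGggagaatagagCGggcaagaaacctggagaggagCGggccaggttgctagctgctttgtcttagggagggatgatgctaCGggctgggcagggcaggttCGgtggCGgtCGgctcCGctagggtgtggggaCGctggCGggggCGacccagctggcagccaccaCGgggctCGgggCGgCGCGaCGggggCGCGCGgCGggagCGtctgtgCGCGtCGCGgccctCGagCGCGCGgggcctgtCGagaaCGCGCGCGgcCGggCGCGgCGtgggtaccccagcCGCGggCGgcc
Neurod2: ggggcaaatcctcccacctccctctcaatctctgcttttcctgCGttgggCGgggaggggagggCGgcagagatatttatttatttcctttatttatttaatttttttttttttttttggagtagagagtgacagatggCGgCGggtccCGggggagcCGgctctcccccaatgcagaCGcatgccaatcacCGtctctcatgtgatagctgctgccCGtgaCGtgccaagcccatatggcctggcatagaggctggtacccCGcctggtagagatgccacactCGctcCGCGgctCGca
Neurog2: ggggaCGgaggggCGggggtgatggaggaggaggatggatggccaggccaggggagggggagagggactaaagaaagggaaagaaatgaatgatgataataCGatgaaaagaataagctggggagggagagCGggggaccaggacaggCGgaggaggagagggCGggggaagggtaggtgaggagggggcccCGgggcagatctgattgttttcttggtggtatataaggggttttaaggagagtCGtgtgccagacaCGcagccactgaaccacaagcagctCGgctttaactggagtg

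Klhl15 encodes a substrate adaptor of a ubiquitin ligase, and its promoter had the highest fold of the 5, 8.70, with the summit 81 bases before the start and 31 CpG in the window. Fibcd1, a chitin-binding receptor, held 46 CpG, the highest number of the 7 windows, with a fold of 7.45. Sphk1 makes the lipid signal sphingosine 1-phosphate, and its window held 21 CpG with a fold of 7.03. Proser2 had 32 CpG and a fold of 7.14. Syt16, a member of the synaptotagmin family, had 42 CpG and a fold of 7.02. The windows chosen by rule thus all held more CpG than the median of all promoters, which was 14. The windows of Neurod2 and Neurog2, which encode proneural factors of glutamatergic neurons, held fewer than those 5, with 16 and 10. Only the Neurog2 count was below that median.

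Beyond these examples, 459 promoter windows of 415 genes had their start site in one of the regions. They were rich in CpG: the median was 22 per 300 bases, against 26 in the 4089 windows with a start site in an MBD3 region with a deacetylase-named peak, 22 in the 4586 windows with a deacetylase-named peak and no MBD3, 4 in the 10280 windows in no merged region, and 14 over all 20418. The ratio of observed to expected CpG had medians of 0.699 in the windows and 0.817 in the other MBD3 promoters. The ratio was at least 0.6 in 317 of the 459 windows (69.1%), in 85.6% of the MBD3 windows with a deacetylase-named peak and in 49.2% of all windows. GC content was close in both MBD3 groups, with medians of 65.3% and 66.3%, against 57% over all windows.

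Short sequence matches on either strand are given as a description. GGGCGG, the GC box bound by the SP family, was present in 76.7% of the 459 windows, in 76.5% of the MBD3 windows with a deacetylase-named peak and in 47.7% of all windows. It occurred in each of the printed windows except that of Sphk1. TAATTA, the core of many homeodomain sites, was in 2.40% of the windows, against 1.54% and 4.45%. CANNTG, the E-box, was in 65.6%, against 58.5% and 68.7%, and CACGTG, which is a form of it, in 7.84%, against 9.86% and 8.05%. CCAAT was in 30.9%, against 35.9% and 38.4%, and the TATA box, TATAAA, in 6.32%, against 4.48% and 12.4%. For the GC box, the share was close to that of the other MBD3 promoters and above that of all promoters, and for the homeodomain core, CCAAT and the TATA box it was below that of all promoters.

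These regions had weaker MBD3 peaks and were narrower than MBD3 regions with a deacetylase-named peak. Fold enrichment is the authors' ratio of ChIP to input signal at a peak's summit. Its median in the 3049 regions was 4.51 (quartiles 3.93 and 5.08, highest 15.2), against 4.62 with 1 deacetylase-named list and 4.95 with both. The authors' −log10 q of the strongest MBD3 peak had medians of 7.80, 9.45 and 12.6, and 27.6% of the regions reached 10, against 58.2% of the MBD3 regions with a deacetylase-named peak. Median widths were 623, 962.5 and 1456 bp; a merged region widens with every list it holds. Almost all of the regions (3018, or 99%) held a single MBD3 peak, and together they held 3080 of the peaks in that list (26.3%). These values stem from the lists that chose the regions and carry no test.

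**Figure D1:**
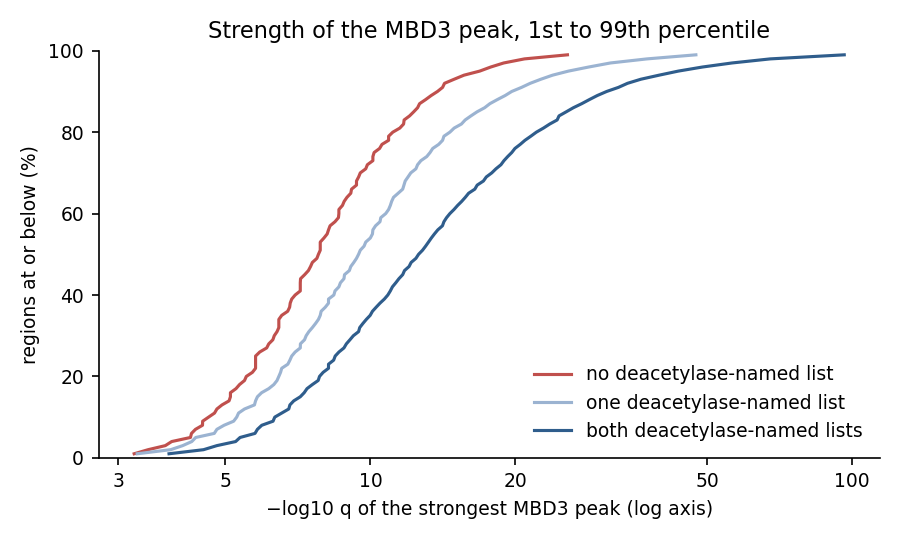
Cumulative percent of regions (vertical axis, 1st to 99th percentile) against the authors' −log10 q of the strongest MBD3 peak (log axis), for regions with no deacetylase-named list, 1 list and both. The curves cross 50% at 7.80, 9.45 and 12.6.

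Most of the regions lay far from any deacetylase-named peak. The median gap was 38274 bp, with quartiles of 12200 and 100403 bp, and 242 regions (7.94%) lay within 1 kb of such a peak. Just inside the rule was a region at Sox5, which encodes a SOX transcription factor (chr6:144210837-144211116), whose neighbouring peak touched it with no shared base. A region at Lima1 lay 4 bp from a deacetylase-named peak and a region at Frzb, which encodes a secreted Wnt antagonist, 7 bp. Just outside it were MBD3 regions whose deacetylase-named peak was weak: the −log10 q of that peak was 2.49 at Zswim6, 2.69 at Sall1 and 2.89 at Nectin1. In 240 MBD3 regions the strongest deacetylase-named peak was under a −log10 q of 5.

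The 12 regions of highest MBD3 fold enrichment were mostly inside genes and, like most of the 3049, away from gene ends. The highest lay in Erg (chr16:95585145-95586361), which encodes an ETS factor known for its role in endothelial cells: the MBD3 fold was 15.2, with an Rbbp4 peak of fold 8.08 and an Rbbp7 peak of fold 6.92, and the summit was 1086 bp from the start site. Rarres1, a retinoic acid responsive gene, followed with 12.4 at a region that held its start site. Kcnk12, a potassium channel gene, had 11.6 at a region 24140 bp from the start, with an Rbbp4 fold of 9.22. Of the 12, 9 had their summit in a gene and 3 lay at a gene end, against 55.3% and 21.5% of all 3049. Beyond Erg, Rarres1 and Kcnk12, no fold exceeded 10.1.

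Mpdz, which encodes a scaffold protein of many PDZ domains, had a fold of 10.1, and a region 1386 bp from Ercc1, a DNA repair gene, had 9.67. Both regions were of MBD3 alone. Bsx, a brain homeobox gene, carried a broad region of 3424 bp with an MBD3 fold of 9.95 and an Rbbp4 fold of 10.6. The region next to Prox1, a homeobox gene of neural differentiation, lay 4164 bp from the gene and 1099 bp from a deacetylase-named peak, with an MBD3 fold of 9.84. Slit3, which encodes a repulsive axon guidance ligand, had a region of fold 9.58 inside the gene, 576490 bp from the start site. A region 6617 bp from Dnajc13, an endosomal chaperone gene, had the same fold. Pld1, a phospholipase gene, had 9.39. Rgs6, a regulator of G protein signalling, and Bmp6, a bone morphogenetic protein, had 9.34 and 9.20, and were the regions of the 12 with a CHD4-named peak, with folds of 4.60 and 4.85. Rbbp4 peaks were in 10 of the 12, Rbbp7 peaks in 4 and CHD4-named peaks in 2. Over all 3049 the shares were 81.3%, 35.3% and 16.3%.

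Rbbp4 was the subunit most often found with MBD3 in these regions. An Rbbp4 peak was present in 2479 regions (81.3%, 95% Wilson interval 79.9 to 82.7), an Rbbp7 peak in 1077 (35.3%, 33.7 to 37.0) and a CHD4-named peak in 497 (16.3%, 15.0 to 17.7). Over all merged regions the shares were 72.5% for Rbbp4, 36.5% for Rbbp7 and 13.4% for CHD4-named peaks. The Rbbp7 and CHD4-named shares were thus near those over all merged regions. Of all merged regions, however, 17982 (46.3%) held neither MBD3 nor a deacetylase-named peak. By construction, each of these held an Rbbp4, Rbbp7 or CHD4-named peak. In regions with a deacetylase-named peak and no MBD3, the shares were 56.4% for Rbbp4, 12.8% for Rbbp7 and 5.98% for CHD4-named peaks. The intervals here and below cover counting error over regions only.

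The Rbbp4, Rbbp7 and CHD4-named shares were all lower in the regions than in the MBD3 regions with a deacetylase-named peak. Rbbp4 was present in 97.3% of those (odds ratio 0.121, two-sided Fisher's exact test, adjusted p = 4.298e-160). Rbbp7 was present in 49.6% (odds ratio 0.555, adjusted p = 3.17e-41, exact test) and CHD4-named peaks in 40.3% (odds ratio 0.288, adjusted p = 1.183e-134, exact test). Over regions with no, 1 and both deacetylase-named lists, the share with Rbbp4 was 81.3%, 94.5% and 98.7%, that with Rbbp7 35.3%, 41.0% and 54.1%, and that with CHD4-named peaks 16.3%, 32.0% and 44.6%. Adjustment was by Benjamini-Hochberg over 5 tests. MBD3 strength and region width moved with these shares, and their part in the differences was not tested. In regions with an MBD3 −log10 q from 5 to 10 the odds ratios were 0.165 for Rbbp4, 0.765 for Rbbp7 and 0.457 for CHD4-named peaks, and with every measure read at the MBD3 summit alone they were 0.215, 0.683 and 0.305; both settings were added after the values had been seen. With summits matched within 250 bp the Rbbp4 odds ratio was 0.472, and with lists of equal length the CHD4-named one was 0.556.

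**Figure D2:**
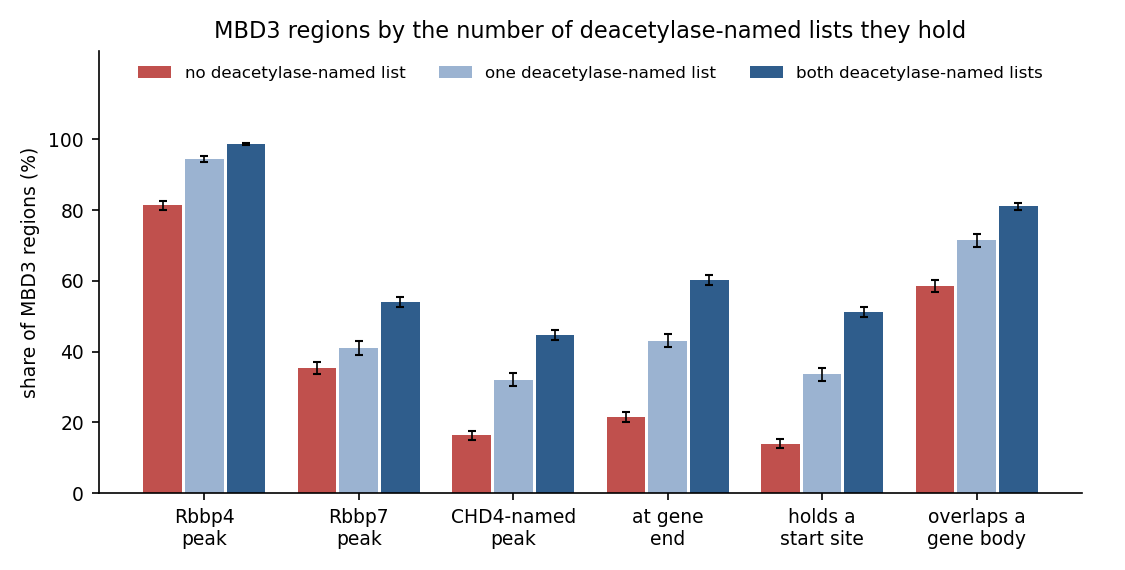
Share of regions (percent, bars, with 95% Wilson intervals) that held an Rbbp4, Rbbp7 or CHD4-named peak, lay at a gene end, held a start site or overlapped a gene body, for MBD3 regions with no deacetylase-named list, 1 list or both. Each share is lowest without such a list, for example 13.9%, 33.6% and 51.2% that held a start site.

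Where the other subunits did have a peak, the order of their strength differed between lists. The median Rbbp4 fold was 5.33 in the regions, 5.73 with 1 deacetylase-named list and 6.28 with both. The median Rbbp7 fold ran the other way, at 6.92, 6.62 and 6.22. CHD4-named medians were 4.29, 4.23 and 4.22. These are medians over the peaks called in 1 library per target, and were not tested.

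Of the 8 possible combinations of the 3 remaining lists, MBD3 with Rbbp4 was the most frequent (1241 regions, 40.7%), followed by MBD3 with Rbbp4 and Rbbp7 (770, 25.3%). MBD3 stood alone in 454 regions (14.9%), with a median width of 323.5 bp. CHD4-named peaks with Rbbp4 were in 256 (8.40%), and all 4 lists met in 212 (6.95%). Rbbp7 without Rbbp4 or a CHD4-named peak was in 87 (2.85%), CHD4-named alone with MBD3 in 21 (0.689%), and CHD4-named with Rbbp7 in 8 (0.262%).

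**Figure D3:**
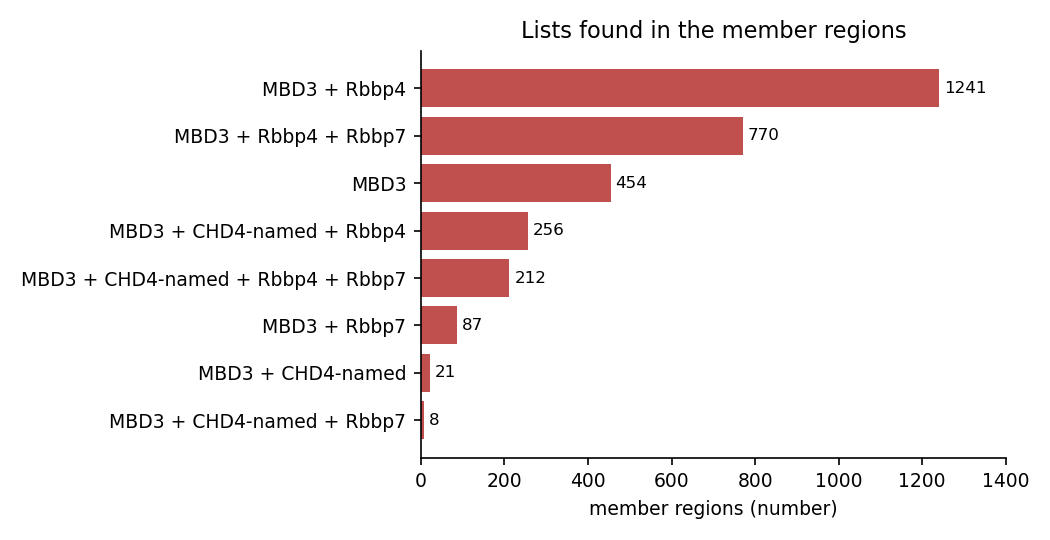
Number of member regions, the MBD3 regions without a deacetylase-named peak, for each combination of lists. MBD3 with Rbbp4 made up 1241 of the 3049 and MBD3 alone 454.

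The regions lay away from genes' ends far more often than other MBD3 regions. A gene end here means within 1 kb of the first or last base of a curated protein-coding gene. Of the 3049 regions, 656 (21.5%, 20.1 to 23.0) touched a gene end, against 4136 of 7612 (54.3%) with a deacetylase-named peak (odds ratio 0.230, Fisher's exact test, adjusted p = 1.565e-218) and 33.7% of all merged regions. The share was 43.1% with 1 deacetylase-named list and 60.2% with both. Among regions off chromosome 18, for which strand and start sites were at hand, 457 of 2946 (15.5%) were at a 5′ end and 47 (1.60%) at a 3′ end only, against 49.0% and 0.834% with both lists. The odds ratio for gene ends was 0.517 with summits matched within 250 bp, 0.406 with lists of equal length and 0.396 with the lists named by the sample labels.

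The same was seen in the distance to start sites, which was not tested. The median distance from the MBD3 summit to the nearest start site was 55776 bp, against 19991 bp with 1 deacetylase-named list and 785 bp with both. Within 250 bp of a start lay 11.2% of the regions, against 24.9% and 33.1%, and beyond 100 kb lay 37.8%, against 28.5% and 22.9%. The summit lay inside a gene in 1687 regions (55.3%) and over 100 kb from any gene in 525 (17.2%). Regions at start sites were thus the smaller group, and regions in gene bodies and between genes the larger.

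**Figure D4:**
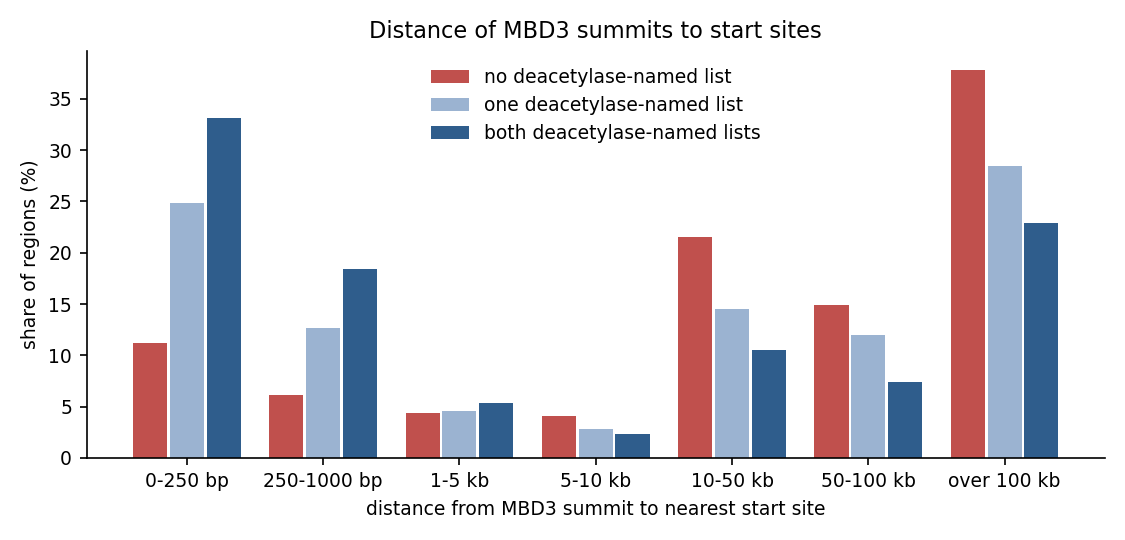
Percent of MBD3 regions in bins of distance from the MBD3 summit to the nearest start site, for the 3 groups by number of deacetylase-named lists. Regions without such a list have 11.2% within 250 bp and 37.8% beyond 100 kb; regions with both have 33.1% and 22.9%.

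Within the group, the share at a gene end was lower with an Rbbp7 peak and higher with an Rbbp4 peak. Most regions with Rbbp7 also held Rbbp4: of the 1077, 770 held Rbbp4 without a CHD4-named peak and 212 with one. Regions with an Rbbp7 peak were at a gene end in 12.53% (135 of 1077) and those without in 26.4% (521 of 1972; odds ratio 0.399, Fisher's exact test, adjusted p = 3.406e-19 over 9 tests that were added after the values had been seen). Rbbp4 went the other way, with 23.6% against 12.46% (odds ratio 2.17, adjusted p = 5.288e-09, exact test). CHD4-named peaks did not separate the regions by place at this threshold: 23.1% with and 21.2% without were at a gene end (odds ratio 1.12, adjusted p = 0.34, exact test). By combination, the share at a gene end was 30.5% for MBD3 with Rbbp4, 12.7% when Rbbp7 was added, 13.9% for MBD3 alone and 1.15% for MBD3 with Rbbp7 alone. In the MBD3 regions with a deacetylase-named peak the shares with and without Rbbp7 were 43.1% and 65.5% (odds ratio 0.399). CHD4-named peaks were more frequent in regions with an Rbbp7 peak, at 20.4% against 14.1% (odds ratio 1.57, adjusted p = 1.385e-05, exact test).

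At gene ends, 695 of 20953 protein-coding genes (3.32%) had one of these regions, against 4557 (21.7%) with an MBD3 region that held a deacetylase-named peak. Of the 695 genes, 524 (75.4%) had no region with a deacetylase-named peak at either end, 171 (24.6%) had one, and 82 (11.8%) had one that also held MBD3. Of the genes on 18 lists chosen for this tissue and for chromatin, 24 had a region at an end. The MBD3 fold at these 24 ran from 3.18 to 7.89, the region held the start site in 9, and 23 had an Rbbp4 peak. At E2f1, Lhx9, Hoxd13 and Neurod6 the MBD3 summit lay 10772, 5178, 4823 and 4086 bp from the start site. In 8 of the 24 a deacetylase-named peak lay within 1 kb of the region. At 10 of the 24 another region at an end held a deacetylase-named peak. These included Dll3, E2f1, Rcor2, Plxna1, Tbr1 and Bhlhe22, where such a region also held MBD3. Counts per list are given below beside the 3.32% over all genes, with no test of the lists.

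The largest share was in the list of cortical glutamatergic genes, where 6 of 18 (33.3%) had a region at an end: Tbr1, Neurod2, Neurod6, Neurog2, Lhx9 and Bhlhe22, all transcription factor genes. Neurod2 had the strongest, a region of 3928 bp over its start (chr11:98326477-98330404) with an MBD3 fold of 6.92, an Rbbp4 fold of 10.9, an Rbbp7 fold of 8.52 and a CHD4-named fold of 4.95, 28005 bp from the nearest deacetylase-named peak. Neurod6 had an MBD3 fold of 4.48 and an Rbbp7 fold of 7.62, 96541 bp from such a peak. Neurog2, a proneural gene upstream of the NeuroD factors, had 4.34 and 7.65 over its start, 1018 bp from such a peak. Tbr1, a factor of deep-layer cortical neurons, had a fold of 4.14 at a region of MBD3 alone, 883 bp from such a peak. Rbbp7 peaks were in 5 of these 6 regions and in 8 of all 24. At the ends of 10 of the 18 genes there was also, or instead, an MBD3 region with a deacetylase-named peak; Tbr1 and Bhlhe22 had both kinds.

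In the GABAergic lineage, 4 of 38 genes (10.5%) had a region at an end, and 24 had an MBD3 region with a deacetylase-named peak. Gad2, which encodes an enzyme of GABA synthesis, had an MBD3 fold of 4.89 over its start, 163 bp from a deacetylase-named peak. Ikzf1, a zinc finger factor, had 4.37 with no deacetylase-named peak for 122479 bp. Npy, a neuropeptide of interneurons, had 3.18 over its start, 286936 bp from such a peak. Rbbp4 was present at all 4 and Rbbp7 at none. Of the 3049 regions, 52 had a gene of this list as the nearest gene. The count was 46 for the 32 axon guidance and migration genes and 26 for the 18 cortical glutamatergic genes. These counts were not compared with those over all merged regions.

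Among signalling genes, 2 of 20 genes of the Notch pathway (10%) had a region: Dll3, an inhibitory ligand (MBD3 fold 4.21, 238 bp from a deacetylase-named peak), and Hey2, a target and repressor (3.39 over its start, 39004 bp away). In the Hedgehog list 1 of 13 (7.69%) did, Disp1, which releases the ligand, with a fold of 4.99 and a CHD4-named fold of 6.75. In the list for axon guidance and migration 2 of 32 (6.25%) did: Slit3 at its start (4.26) and Plxna1, a semaphorin receptor (3.77, 62 bp from a deacetylase-named peak). None of 26 Wnt genes did, while 14 had an MBD3 region with a deacetylase-named peak. At these small counts, the lists stood at 0 to 2 genes each.

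The lists for chromatin, the cell cycle and progenitors held 0 or 1 such gene each. Of 15 NuRD genes, 1 had a region (6.67%), Mta1, which encodes a subunit of the complex itself, with a fold of 7.89 at 311 bp from a deacetylase-named peak; 11 had an MBD3 region with a deacetylase-named peak. Rcor2, a corepressor of the CoREST family, was the 1 of 20 corepressors (5%), with a fold of 4.10. The region lay 898 bp from a deacetylase-named peak. E2f1, a cell cycle factor, was the 1 of 20 cell cycle genes (5%), with 4.40, and Pax6, a factor of cortical progenitors, the 1 of 24 progenitor genes (4.17%), with 6.44 at its start. None of 25 genes for Polycomb and DNA methylation had a region at an end. The ribosomal gene Rpl15 (6.45, 79 bp from a deacetylase-named peak) was the 1 of 29 in its list (3.45%), and no housekeeping gene of 10 had one.

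Lists for genes of other tissues and cell types held 0 to 2 such genes each, beside 3.32% over all genes. Hoxa4 and Hoxd13, homeobox genes of the trunk and limbs, had folds of 4.13 and 3.74, as the 2 of 38 Hox genes (5.26%); the nearest deacetylase-named peaks were 177109 and 93059 bp away. Dazl, a germ cell RNA-binding protein, was the 1 of 18 germline genes (5.56%), with 5.41 and a peak 215468 bp away. C1qa, a complement gene of microglia, was the 1 of 8 microglial genes, with 6.75. No region lay at an end of 13 genes for oligodendrocytes and astrocytes or of 14 for endothelial and mural cells. None of the Hox, germline or microglial genes had an MBD3 region with a deacetylase-named peak at an end. In bulk tissue, binding in few cells and weaker binding per cell cannot be told apart.

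**Figure D5:**
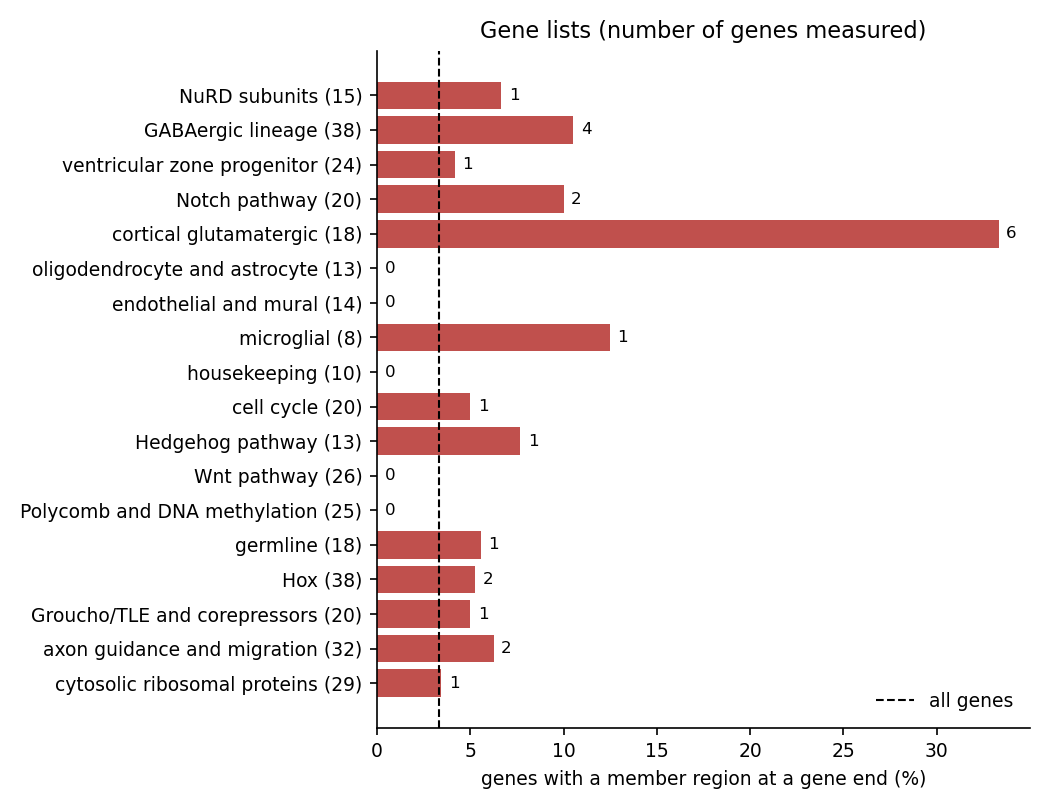
Percent of the genes of each list (number of genes in brackets) with a member region, an MBD3 region without a deacetylase-named peak, at a gene end, with the number of such genes beside each bar. The dashed line marks the 3.32% over all genes; the cortical glutamatergic list stands at 33.3%, and 5 lists stand at 0.

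Several genes were the nearest gene to many of the regions. Gse1, which encodes a chromatin-associated factor, had 13 over its 352.9 kb, all in its body, with MBD3 folds from 3.68 to 6.24 and Rbbp4 peaks in 10. Tenm3 (1297 kb) and Tenm4 (739.9 kb), teneurin genes of neuronal wiring, had 10 and 9, with 8 and 5 in the gene body. Cux2 (192.5 kb), a homeobox gene of upper-layer neurons, had 9, with 7 in its body. Auts2 (1106 kb), Celf4 (276.9 kb) and Sox11 followed with 8 each. The counts were not adjusted for gene length. All of the Sox11 regions lay outside the gene, which is 8.45 kb long; Sox11 encodes a factor of newly formed neurons. All 7 genes also had between 4 and 21 MBD3 regions with a deacetylase-named peak. The other regions were widely spread, since 2208 genes were the nearest to at least 1.

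The accessibility lists tied few of the regions to the loss of DLX1 and DLX2. Of the 3049 regions, 50 (1.64%, 1.25 to 2.16) overlapped a region more open in KO than WT FTneg cells, against 218 of 7612 MBD3 regions with a deacetylase-named peak (2.86%) and 1.33% of all merged regions. The odds ratio was 0.566 (Fisher's exact test, adjusted p = 0.000204). The share followed no order with the number of deacetylase-named lists, at 1.64%, 3.22% and 2.68%. The call was not kept in 3 of 9 alternatives, and the cause was not tested. With each ChIP list cut to its 5517 strongest peaks, which also changed the regions compared, the shares were 3.29% and 2.70%, an odds ratio of 1.23 (exact test, adjusted p = 0.2264). In regions with an MBD3 −log10 q from 5 to 10 the odds ratio was 0.787 (exact test, adjusted p = 0.2898), and for accessibility regions of an area of at least 1000 it was 0.611 (exact test, adjusted p = 0.1321).

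Of the 724 KO-higher FTneg regions, 51 (7.04%) overlapped one of the regions and 226 an MBD3 region with a deacetylase-named peak; 2 overlapped both. The other lists were much shorter, with 53 WT-higher FTneg, 33 WT-higher FTpos and 12 KO-higher FTpos regions. Their low counts are thus not comparable with those of the 724. WT-higher FTneg regions overlapped 1 of the 3049 (0.0328%, against 0.0927% of all merged regions), at Camkmt, a methyltransferase gene. WT-higher FTpos regions overlapped 2 (0.0656%, against 0.0696%), at Rab31, a vesicle trafficking gene, and near Itga1, an integrin gene. No region overlapped the KO-higher FTpos list, and 0 of 3049 allows a share of up to 0.0984%, against 0.00258% of all merged regions.

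None of the 656 regions at a gene end overlapped KO-higher FTneg chromatin, against 50 of the 2393 elsewhere (2.09%, Fisher's exact test, adjusted p = 1.385e-05). A count of 0 of 656 allows a share of up to 0.457%. Gene ends are a gene's first and last base only, and not every start site lies there. The region in Ankrd6, among the 50, held a start site 193 bp from its MBD3 summit but was not at a gene end. Of the 50, 21 (42%) had their summit in a gene, against 55.3% of all 3049, and 13 (26%) lay over 100 kb from any gene, against 17.2%. Their MBD3 fold ran from 2.83 to 8.42 with a median of 4.47, close to the median of 4.51 over all 3049. Rbbp4 peaks were in 47 (94%), Rbbp7 peaks in 34 (68%) and CHD4-named peaks in 14 (28%) of the 50, against 81.3%, 35.3% and 16.3% of all 3049.

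Rbbp7 went with this overlap. Of the regions with an Rbbp7 peak, 34 (3.16%) overlapped KO-higher FTneg chromatin, and of those without, 16 (0.811%; odds ratio 3.99, Fisher's exact test, adjusted p = 9.684e-06). Away from gene ends the shares were 3.61% and 1.103% (odds ratio 3.36, exact test, adjusted p = 7.522e-05). In the MBD3 regions with a deacetylase-named peak they were 4.77% and 0.991% (odds ratio 5.00). Rbbp4 had 47 (1.90%) against 3 (0.526%; odds ratio 3.65, exact test, adjusted p = 0.0214). For CHD4-named peaks the values were 14 (2.82%) and 36 (1.41%; odds ratio 2.03, exact test, adjusted p = 0.0363), but 1.88% and 1.46% when read at the MBD3 summit alone (odds ratio 1.29, exact test, p = 0.4968).

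The area of an accessibility region is the authors' score, summed −log10 p over its length. The largest of the 50 overlaps, with an area of 2538 (chr10:16441020-16442290), lay 1281857 bp from the nearest gene, Cited2, a transcriptional coregulator, with an MBD3 fold of 6.20, an Rbbp4 fold of 6.32 and an Rbbp7 fold of 7.71. The next was near Spaca1, a sperm acrosome gene, with an area of 1721, 191734 bp away. Olig1, a factor of oligodendrocyte precursors, had a region 33348 bp away with an area of 1423 and an MBD3 fold of 4.82; a deacetylase-named peak lay 406 bp from it. Adgrl2, an adhesion receptor gene, was the nearest gene, 306774 bp away, to a region with an area of 1401. That region had the highest Rbbp7 fold of the 8, 13.2. Ebf3, a factor of neuronal differentiation, had an area of 1391 at a region 1489 bp from the gene and 354 bp from a deacetylase-named peak. Cdc73, a subunit of the PAF1 complex, was the nearest gene, 344501 bp away, to a region of MBD3 alone with an area of 1269. Regions in Edar, the ectodysplasin receptor gene, and in Usp29, a ubiquitin protease gene, had areas of 1209 and 1186. The median area over the 51 overlapped regions was 778.6, against 702.7 over all 724.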

How the data were processed

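The data were 6 ChIP-seq peak lists (1 library per target, called against input) and 4 accessibility lists over 3 embryos per group. Per the submitters' processing notes, the build was mm10 and the tools included MACS2 2.2.7.1, Genrich, BWA, deepTools and SAMtools 1.10, with no settings stated there. Each ChIP list gives, as deposited by the authors, a fold ratio and a −log10 q per peak. Each accessibility region has a score, its area, as deposited by the authors, at least 500 in these lists. A list cut at some strength, with unknown depth, cannot show absence of binding.

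Peaks were merged at 1 bp of overlap (Python 3.11.15, pandas 2.3.3). Genes were 20953 curated protein-coding genes of RefSeq (GRCm38.p6), with start sites for chromosomes 1 to 17, 19 and X. Shares were compared with two-sided Fisher's exact tests (scipy 1.17.1), Benjamini-Hochberg adjusted over 5 tests, and over 9 within the regions; the overlap code was tested on simulated data. Odds ratios with a cell of 0 had 0.5 added. Named regions were the 12 of highest MBD3 fold, list genes with a region at an end (values for up to 4 a list; 1 gene is counted but not reported here), the 8 of largest KO-higher area, every overlap with another accessibility list, and the genes with most regions (up to 5, and ties). The members and the gene lists were chosen with earlier results of these data known. Alternatives covered peak strength, list length, summit distance, single peaks, list names, gene-end distance, near misses and area.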

Additional observations from a re-analysis of the deposited data

How the results depend on the processing

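The number of regions was 1951 with peaks of −log10 q of at least 10, 4902 with summits matched within 250 bp and 1794 with an MBD3 −log10 q from 5 to 10; it stayed between 2526 and 3879 in the other 4 of 7 alternatives. The lower share at gene ends kept its call in 10 of 10 alternatives (odds ratios 0.204 to 0.517). The lower shares of Rbbp7 (0.467 to 0.765), Rbbp4 (0.106 to 0.472) and CHD4-named peaks (0.101 to 0.556) kept theirs in 8 of 8 each. With the lists named by the sample labels, the list read as CHD4 was the HDAC1-named one, and it gave the 0.101. The lowest of the other CHD4-named odds ratios was 0.294, with regions within 1 kb of a deacetylase-named peak left out. The lower overlap with KO-higher FTneg chromatin kept its call in 6 of 9 (0.531 to 0.645). It reversed with lists of equal length (odds ratio 1.23, exact test, adjusted p = 0.2264), and lost its call with an area of at least 1000 (0.611) and with an MBD3 −log10 q from 5 to 10 (0.787); the last alternative leaves fewer regions, and the cause was not tested. The alternatives by MBD3 strength from 5 to 10 and at the MBD3 summit alone were chosen after seeing the data. No paired analysis was possible because each accessibility list combines its embryos and each ChIP target has 1 library. With 1 library per target and no read counts, a peak missing from a list is not a measure of absence.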

Other observations

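Of 1005 miRNA hairpins in RefSeq, 4 overlapped one of the regions and 50 overlapped an MBD3 region with a deacetylase-named peak. The 4 were Mir193a (MBD3 fold 3.07), Mir1983 (4.87), the hairpin of miR-935 in Cacng8 (5.57) and Mir210 (3.65), a hypoxia-induced miRNA. The peak lists give no level of these miRNAs.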
